A study of Homo sapiens with 3 samples.

Results

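In 3 RNA-seq libraries of the human liver cancer line PLC, 4021 of 170810 rows in the deposited gene tables carried no gene name and stood at 1 FPKM or more, and these merged into 2675 separate loci on build hg19. FPKM counts sequenced fragments per kilobase of transcript and corrects for the depth of the library. A row is a stretch of the genome that the assembly of one library joined into a gene, and a row without a name is one for which the tables list a dash in place of a gene symbol. Rows of different libraries that overlapped by any base were merged into 1 locus. The members were chosen by their own FPKM, so their number and levels describe what was chosen and support nothing further. Length and position were not criteria of the choice, but both bear on it. Short rows reach 1 FPKM with fewer fragments, and a stretch that the assembly joined to a named gene is not a member.

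PLC is an established hepatocellular carcinoma line, and all 3 groups were harvested 48 hours after infection with viruses that carry short hairpin RNAs. The group named NTC received a non-targeting hairpin, shDIS3L2 hairpins against DIS3L2 and shhnRNP U hairpins against the hnRNP U gene HNRNPU, each with 1 library. By its title, the study asks how DIS3L2 acts in liver cancer through splicing that depends on hnRNP U. The sources used here do not say how many hairpins each group received or whether they were pooled. With 1 library per group no difference has a replicate check, and no p-value was computed.

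DIS3L2 is a cytoplasmic exonuclease that degrades RNA from its 3' end and prefers RNA to which uridines have been added. hnRNP U is an abundant nuclear protein that binds RNA and chromatin and takes part in splicing and in the packing of chromosomes. Transcripts without a gene name are common in RNA-seq assemblies. Known kinds are RNA made in the opposite direction from a gene's promoter, RNA that continues past the end of a gene, pieces of introns, RNA from enhancers, and long noncoding genes that an annotation lacks. Nothing describes the library kit as keeping strand, so the strand from which any of these loci was transcribed is unknown, and RNA on the strand of a neighbouring gene cannot be told apart from RNA on the other strand. Names of genes below refer to neighbours and not to the loci themselves.

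The NTC library held 1308 such rows, shDIS3L2 1519 and shhnRNP U 1194, among 57072, 56969 and 56769 rows in all. Estimated depth was 25.2, 20.06 and 22.2 M fragments in NTC, shDIS3L2 and shhnRNP U. The targeted genes fit the labels: DIS3L2 stood at 7.61, 3.23 and 11.2 FPKM and HNRNPU at 178, 232 and 33.5 FPKM in that order of libraries. All 10 hepatocyte marker genes checked were at 1 FPKM or more in NTC and shhnRNP U and 9 of 10 in shDIS3L2, with summed levels of 13159, 3238 and 7822 FPKM. Most of each sum is SERPINA1 (11439, 2865 and 6710 FPKM), and single markers differ in direction, with the fibrinogen gene FGB at 6.21, 17.9 and 1.93 FPKM and the liver transcription factor gene HNF4A at 42.3, 29.8 and 45.8 FPKM. Of 5 matched markers of other cell types, only CD68 reached 1 FPKM in any library, in a row that also covers the widely expressed gene EIF4A1, and the other 4 stood at 0.720 FPKM or less. The NTC table had 0 entries on the mitochondrial chromosome, and each of the other tables included 1 mitochondrial locus without a name. Whether that gap also changes the scale of every FPKM in NTC was not tested.

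Most loci were short and weak, and most rows of 600 bases or more fit a single exon. Shorter rows were not assessed for exons, and depth was fitted to unnamed rows, which favours such a fit. The merged loci had a median length of 864 bases (quartiles 585.5 and 1520.5), from 153 to 235543 bases, and 25 of them spanned 10000 bases or more. Row levels had a median of 1.75 FPKM in NTC, 1.74 in shDIS3L2 and 1.89 in shhnRNP U, and 57.6%, 58.4% and 52.7% of rows lay under 2 FPKM. The deposited bounds of each FPKM carry the fragments behind it: a median row rested on 21.9 fragments in NTC, 22.8 in shDIS3L2 and 22.9 in shhnRNP U, and its bounds reached 42.8%, 41.9% and 41.8% of the FPKM to either side. Of rows with 600 bases or more, 714 of 863 in NTC, 1015 of 1167 in shDIS3L2 and 715 of 856 in shhnRNP U had fragments and FPKM that fit 1 unbroken exon over their whole length (82.7%, 87.0% and 83.5%). A further 98, 99 and 103 rows fit less than 80% of their length, as rows with several exons do, although wider bounds would look the same. Just inside the threshold, the 3 lowest rows of NTC stood at 1.00005, 1.0001 and 1.003 FPKM on 20, 11 and 17 fragments, and just outside it 3 rows stood at 0.991, 0.996 and 0.996 FPKM.

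**Figure D1:**
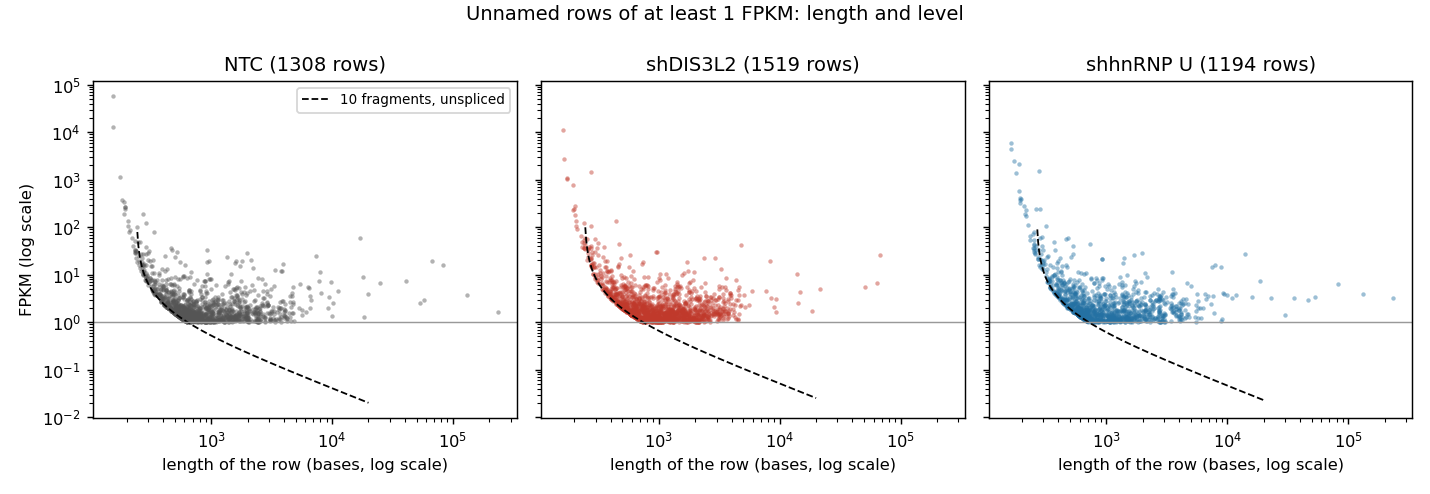
Length in bases against FPKM, both on log axes, for each unnamed row at 1 FPKM or more, with 1 panel per library (1308, 1519 and 1194 rows). The dashed line is the FPKM that 10 fragments give an unspliced row of that length, the grey line is 1 FPKM, and the highest levels all sit at the short end.

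The level of a row went with its length. In NTC 10 fragments are worth 6.58 FPKM in a row of 300 bases, 1.10 FPKM at 600 bases and 0.522 FPKM at 1000 bases. In shDIS3L2 the same 10 fragments are worth 8.48, 1.39 and 0.657 FPKM, and in shhnRNP U 12.1, 1.33 and 0.610 FPKM. Rows under 300 bases numbered 67, 56 and 51 in NTC, shDIS3L2 and shhnRNP U. Their median levels of 24.3, 36.3 and 44.1 FPKM rested on medians of only 14, 14.6 and 14.3 fragments. Rows of 600 bases or more had medians of 1.49, 1.53 and 1.57 FPKM on 33.4, 26.9 and 31.0 fragments. Every one of the 14 NTC rows at 100 FPKM or more was shorter than 300 bases, as were 14 of 15 in shDIS3L2 and 18 of 19 in shhnRNP U.

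The single highest values show this most plainly. The locus chr18:64289298-64289450 spans 153 bases in an intergenic stretch 17923 bases from CDH19, a cadherin gene. It stood at 57058 FPKM in NTC on 30 fragments and had no unnamed row in either knockdown. At chr1:48661860-48662021 the level was 13048 FPKM in NTC on 14 fragments and 6017 FPKM in shhnRNP U on 11 fragments, with no row in shDIS3L2. A locus inside ZNF675, a zinc finger gene, at chr19:23730891-23732875, stood at 28.9 FPKM in NTC, 10909 in shDIS3L2 and 44.1 in shhnRNP U. Those 3 values rested on 24.1, 29 and 14 fragments, in rows of 1964, 161 and 249 bases, so the FPKM differed far more than the fragments did. Inside HUWE1, a ubiquitin ligase gene, chrX:53605045-53605207 stood at 4528 FPKM in shhnRNP U on 11 fragments. Inside GTF2H5, a subunit gene of the repair and transcription factor TFIIH, chr6:158589463-158589625 stood at 2782 FPKM in shDIS3L2 on 9.59 fragments. At chr9:70646295-70646471, 1368 FPKM in shhnRNP U rested on 13.7 fragments, and at chr19:51009010-51009184, 71 bases past the end of JOSD2, 1058 FPKM in shDIS3L2 rested on 14 fragments. The mitochondrial locus chrMT:16295-16569 stands apart from these in depth. This stretch lies at the end of the numbered mitochondrial sequence, in the control region where replication and transcription start, and stood at 1451 FPKM in shDIS3L2 and 1552 FPKM in shhnRNP U on 1174 and 949 fragments.

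Long, well covered loci were few. The one with the most fragments, chr2:13656191-13673508, lies 4290 bases upstream of AC092635.1 and 1633524 bases from NBAS, the nearest named gene at 1 FPKM or more. Its level was 59.7 FPKM (56.5 to 63.0) in NTC, 10.3 (9.63 to 11) in shDIS3L2 and 26.8 (24.0 to 29.6) in shhnRNP U, where a range after an FPKM is its deposited interval. These levels rested on 1360, 848 and 357 fragments, and NTC was the highest of the 3 without overlap. The fragments and FPKM of its rows fit transcript lengths of 903, 4089 and 600 bases, although the rows span 17097, 13887 and 13884 bases, so the assembled transcript was not the same in each library. The longest locus, chr13:22615112-22850654, spans 235543 bases only because the NTC row joined distant pieces. That row stood at 1.62 FPKM, and the knockdown rows within it were 394 and 408 bases long at 8.47 FPKM in shDIS3L2 and 5.55 FPKM in shhnRNP U. Likewise chr7:84277547-84510275 owes its 232729 bases to the shhnRNP U row alone, and chr1:187982110-188114109 was long in NTC and shhnRNP U and 1120 bases in shDIS3L2.

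About 2 in every 3 loci were seen in 1 library. Of 2675 loci, 1814 (67.8%) reached 1 FPKM in 1 library, 546 (20.4%) in 2 and 315 (11.8%) in all 3. Loci chosen in a single library numbered 526 in NTC, 783 in shDIS3L2 and 505 in shhnRNP U. The pairs shared 226 loci (NTC and shDIS3L2), 179 (NTC and shhnRNP U) and 141 (shDIS3L2 and shhnRNP U). Sharing went with coverage. Loci present in all 3 libraries had a median length of 1762 bases and a median of 81.9 fragments in their best library. Loci in 1 library had medians of 752.5 bases and 16 fragments. Part of this gap is built in, because a shared locus spans all its merged rows and takes the best of several libraries. How large that part is was not tested, and it also enters the classes that follow. Of loci with fewer than 20 fragments in every library, 16 of 1185 (1.35%) were chosen in all 3. That share was 82 of 878 (9.34%) from 20 to 50 fragments, 94 of 350 (26.9%) from 50 to 100 and 123 of 262 (46.9%) at 100 or more.

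**Figure D2:**
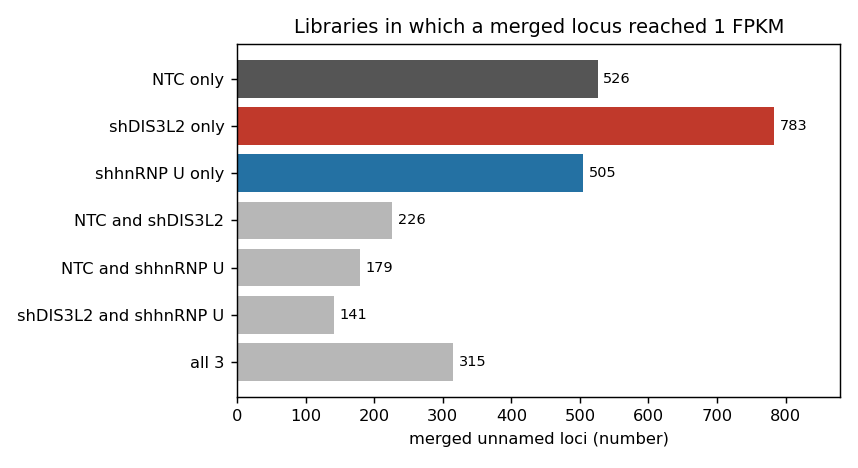
Number of merged loci (horizontal axis) by the libraries in which they reached 1 FPKM. The bar for shDIS3L2 alone, with 783 loci, is the longest, and 315 loci were reached in all 3 libraries.

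Loci chosen in 1 library were looked up in the others. Of the 783 loci chosen in shDIS3L2 alone, 166 had an unnamed row below 1 FPKM in NTC. Another 332 overlapped, by any base, named rows of any level in NTC whose genes overlapped them in shDIS3L2 as well. A further 70 overlapped a named row in NTC whose gene does not reach them in shDIS3L2. For the remaining 215 (27.5%) NTC had no row at all. The share without any row ran from 27.5% to 35.7% over the 6 pairings of a library's own loci with another library. Counting an unnamed row of any FPKM as present, 569 loci were in all 3 libraries and 1352 in 1.

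Relative to named rows, the loci were spread unevenly over the chromosomes. All chromosomes from 1 to 22 and X held some, with 248 on chromosome 1, and 25 loci lay on 10 unplaced scaffolds. Per 100 named rows at 1 FPKM or more, a chromosome held a median of 23.2 loci. Chromosome 14 was lowest at 19.0, and chromosomes 21, 13, 9 and 20 were highest at 48.9, 36.3, 34.5 and 31.8. The densest megabase was the gene-rich end of chromosome 19, from position 1 to 1000000, with 18 loci. Next came chr14:105000001-106000000 with 13 and chr19:22000001-23000000, within a cluster of zinc finger genes, with 12.

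Nearly 1 in every 2 rows lay within a named gene. A named row of the same library overlapped 48.3% of unnamed rows in NTC, 49.4% in shDIS3L2 and 48.7% in shhnRNP U, and 96.5%, 97.2% and 96.9% of those lay wholly inside it. Since such rows share their ground with the gene, fragments of the gene's own precursor RNA and of a separate transcript cannot be told apart there. Outside genes, the median distance to the nearest named row was 2232 bases in NTC, 2323 in shDIS3L2 and 2491 in shhnRNP U. Only 40, 42 and 48 rows lay more than 50000 bases from any named row. Measured against named rows at 1 FPKM or more, called expressed genes from here on, overlap was 38.5%, 38.1% and 39.4%.

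The libraries differed in the side of the gene on which the loci lay. Within 5000 bases of the nearest expressed gene, shDIS3L2 had 271 rows downstream, past the gene's end, and 115 upstream, before its start. NTC had 169 downstream and 170 upstream, and shhnRNP U 136 and 139. The downstream share was 70.2% in shDIS3L2 (exact binomial 95% interval 65.4% to 74.7%), 49.9% in NTC (44.4% to 55.3%) and 49.5% in shhnRNP U (43.4% to 55.5%). These intervals cover counting error only and take each row as independent, while a few rows share a gene: the 271 rows lie beside 247 genes. A further 61, 88 and 57 rows in NTC, shDIS3L2 and shhnRNP U lay beside a row whose gene strand was not found or whose names disagreed on it. The split by side was chosen after values of these loci had been seen. It also depends on where each assembly ended its named rows, since a stretch joined to a gene is not counted.

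**Figure D3:**
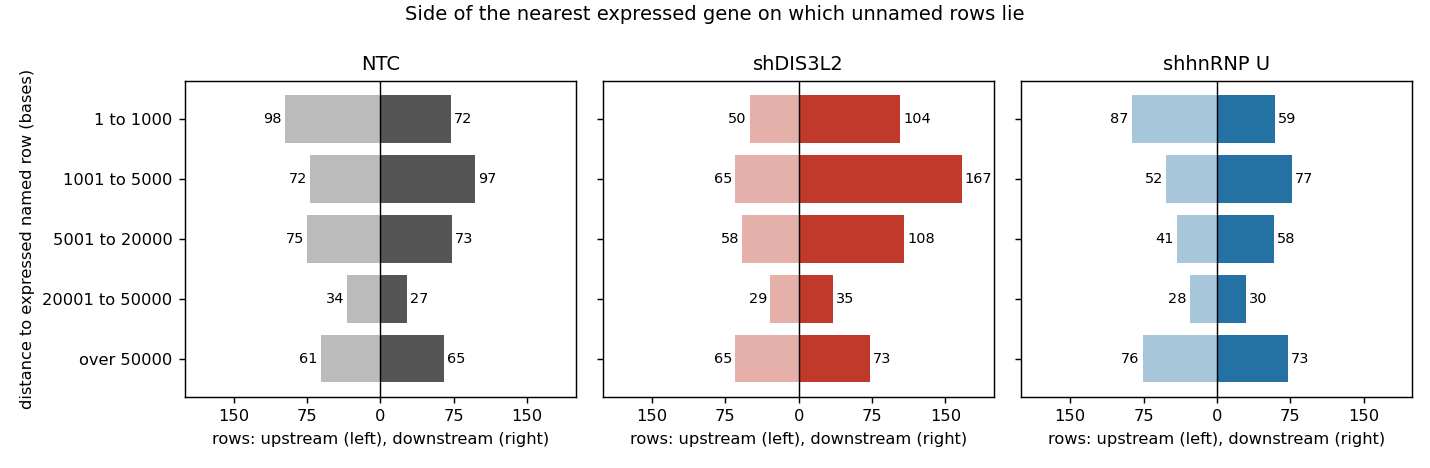
Number of unnamed rows (horizontal axis) upstream, drawn to the left, and downstream, drawn to the right, of the nearest named row at 1 FPKM or more, by distance in bases, with 1 panel per library. In shDIS3L2 the downstream bars are longer than the upstream bars from 1 to 20000 bases, with 104, 167 and 108 rows against 50, 65 and 58, and NTC and shhnRNP U show more rows upstream than downstream within 1000 bases.

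By distance, the excess past gene ends in shDIS3L2 held up to 20000 bases. Within 1000 bases there were 104 rows downstream and 50 upstream in shDIS3L2, 72 and 98 in NTC, and 59 and 87 in shhnRNP U. From 1001 to 5000 bases the counts were 167 and 65 in shDIS3L2, 97 and 72 in NTC, and 77 and 52 in shhnRNP U. From 5001 to 20000 bases they were 108 and 58, 73 and 75, and 58 and 41 in the same order. Beyond 50000 bases the sides were close to even in all 3 libraries, with 73 and 65 in shDIS3L2, 65 and 61 in NTC, and 73 and 76 in shhnRNP U. As a share of all chosen rows, downstream rows made up 17.8% in shDIS3L2, 12.9% in NTC and 11.4% in shhnRNP U, and upstream rows 7.57%, 13.0% and 11.6%, so shDIS3L2 had both more rows past gene ends and fewer before gene starts. Within genes, the first 25% of the gene held 28.5% of the inner rows in shDIS3L2 (124 of 435), 38.4% in NTC (137 of 357) and 38.1% in shhnRNP U (126 of 331), and the last 25% held 26.2%, 23.5% and 22.4%.

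Several properties of the libraries moved with this difference. shDIS3L2 had the lowest depth, the most chosen rows and the longest rows, with a median of 929 bases against 763 in NTC and 852.5 in shhnRNP U. Among rows of 600 bases or more, the downstream share was 72.1% in shDIS3L2, 55.9% in NTC and 51.4% in shhnRNP U. With a floor of 0.5 FPKM it was 72.0%, 59.0% and 56.2%, so the libraries lay closer together and kept their order. The part of depth in the difference was not tested.

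Levels of the flanking loci are given as a description, with sides taken from NTC alone, since a locus could enter by reaching 1 FPKM in the knockdown while NTC was below it. Of 152 downstream loci with a row in NTC and in shDIS3L2, 102 (67.1%) were higher in shDIS3L2, and the median log2 ratio was 0.26. Ratios throughout are log2 of FPKM plus 1, which understates differences of weak loci. Of 87 upstream loci, 36 (41.4%) were higher in shDIS3L2, with a median of -0.07. Loci overlapping a gene had a median of 0.15 and loci beyond 5000 bases 0.20. Among loci at 1 FPKM or more in both libraries, 45 of 77 downstream loci (58.4%) were higher in shDIS3L2 with a median of 0.09, and 17 of 48 upstream loci (35.4%) with a median of -0.10. Overlapping and more distant loci then both had a median of 0.07, so the downstream loci no longer stood apart from them by median. In shhnRNP U the downstream and upstream medians were both 0.00, with 56 of 113 and 52 of 105 loci higher than in NTC. Over loci at 1 FPKM or more in both, they were 0.01 and -0.04. The genes beside the downstream loci chosen in shDIS3L2 alone numbered 164 and had a median log2 ratio of 0.13 against NTC. By the size rule described below, 7 were higher and 7 lower, where 9.07% of all features tested were higher and 7.57% lower. In shhnRNP U the 56 such genes had a median of 0.20, with 7 higher and 2 lower, where 8.52% and 7.49% of all features were.

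Of the 271 downstream rows of shDIS3L2, 171 were chosen in that library alone. In NTC, 77 of the 271 were also chosen, 52 had an unnamed row below 1 FPKM and 142 had none. Of those 142, 31 overlapped a named row of NTC whose gene did not reach them in shDIS3L2. The 271 rows had a median length of 1189 bases and a median distance from the gene of 1442 bases. The neighbours described next, other than ONECUT1, are those with the most fragments in the downstream row of shDIS3L2. That choice favours loci that are high in shDIS3L2, so they are examples only and add no support to the downstream excess.

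EREG encodes epiregulin, a ligand of the epidermal growth factor receptor. The locus chr4:75254778-75257018, 308 bases past its end, stood at 5.38 FPKM (4.64 to 6.13) in shDIS3L2, 1.74 (1.35 to 2.14) in NTC and 2.40 (1.91 to 2.89) in shhnRNP U. EREG itself stood at 19.2 FPKM in shDIS3L2, 2.65 in NTC and 22.4 in shhnRNP U, so gene and locus were both low in NTC, while in shhnRNP U the gene was high and the locus was not. EEF1A2 encodes a form of the translation elongation factor that is typical of neurons and muscle. At chr20:62117224-62118245, 1121 bases past it, the level was 10.5 FPKM (8.89 to 12.2) in shDIS3L2, 1.78 (1.15 to 2.41) in NTC and 2.79 (1.90 to 3.68) in shhnRNP U. The gene stood at 260 FPKM in shDIS3L2, 127 in NTC and 136 in shhnRNP U. For both loci the intervals of shDIS3L2 lay above those of the other libraries, and the assembled bounds were alike in NTC and shDIS3L2.

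SPPL2A encodes a protease that cuts within membranes. Its downstream locus, chr15:50994483-50998528, stood at 11.4 FPKM (10.2 to 12.5) in shDIS3L2, 2.37 (2.05 to 2.69) in NTC and 5.88 (4.71 to 7.05) in shhnRNP U, with the gene at 38.2, 24.8 and 18.1 FPKM. The rows had unequal lengths here, 1969 bases in shDIS3L2, 4046 in NTC and 1043 in shhnRNP U. ZFAND2A is a stress-induced gene whose protein binds the proteasome. Past it, chr7:1187788-1191346 stood at 8.43 FPKM (7.71 to 9.15) in shDIS3L2 on 546 fragments and 3.61 (3.15 to 4.07) in shhnRNP U, and NTC had no unnamed row. The gene itself stood at 203.5 FPKM in shDIS3L2, 96.7 in NTC and 107 in shhnRNP U. LONRF3 encodes a ring finger protein, and chrX:118153664-118157195 beside it stood at 5.59 FPKM in shDIS3L2 and 1.25 in shhnRNP U. In NTC that stretch lay within the LONRF3 row itself, whose level was 3.59 FPKM, against 3.40 in shDIS3L2 and 1.93 in shhnRNP U.

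Some downstream loci had an unnamed row in shDIS3L2 alone. ID4 encodes a helix-loop-helix protein that blocks the DNA binding of related factors. The locus chr6:19841006-19842428, 91 bases past ID4, stood at 6.37 FPKM (5.33 to 7.41) in shDIS3L2 on 151 fragments, although ID4 was lower there (59.5 FPKM) than in NTC (77.4). ZC3HAV1L is a relative of the antiviral zinc finger gene ZC3HAV1. The locus chr7:138706243-138709722 beside it stood at 2.86 FPKM in shDIS3L2, and the ZC3HAV1L row covered that stretch in both other libraries. SLC25A45 encodes a mitochondrial carrier, and chr11:65138847-65142267, 123 bases past it, stood at 2.67 FPKM in shDIS3L2. That stretch also overlaps the noncoding gene RP11-867O8.5, which was below 1 FPKM in shDIS3L2. Others had an unnamed row in shDIS3L2 and NTC, with the higher level in shDIS3L2. FNDC3B, a gene of fibronectin type III domains, had a locus 157 bases past its end at chr3:172119612-172125201, with 2.31 FPKM (2.01 to 2.61) in shDIS3L2, 0.932 (0.633 to 1.23) in NTC and no row in shhnRNP U. The row ran over 5590 bases in shDIS3L2 and over 1900 in NTC. KNSTRN, a gene of the mitotic spindle, had chr15:40687083-40689605 at 3.49 FPKM (2.93 to 4.05) in shDIS3L2 and 2.22 (1.83 to 2.62) in NTC, and in shhnRNP U the stretch lay inside the gene's row.

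At other downstream loci the intervals of shDIS3L2 and NTC overlapped, or shhnRNP U was highest. SENP2 encodes a protease of the protein tag SUMO, and chr3:185352336-185360061 beside it stood at 4.56 FPKM (4.20 to 4.91) in shDIS3L2, 4.81 (4.06 to 5.57) in NTC and 1.70 (1.28 to 2.12) in shhnRNP U. Its row spanned 7726 bases in shDIS3L2 and 1575 in NTC, so the levels were alike over unlike stretches. Past SNX12, a sorting nexin gene, chrX:70273815-70278127 stood at 1.92 FPKM in shDIS3L2 and 1.99 in NTC. Past RAB11B, a GTPase gene of recycling endosomes, chr19:8471230-8474918 stood at 2.01 FPKM in shDIS3L2, 1.86 in NTC and 0.862 in shhnRNP U. MELK, a kinase gene of dividing cells, had chr9:36678443-36682172 past its end at 4.09 FPKM (3.63 to 4.56) in shhnRNP U, 2.34 (1.94 to 2.75) in shDIS3L2 and 1.96 (1.65 to 2.26) in NTC. Near the hepatic transcription factor gene ONECUT1, chr15:53042143-53046293 stood at 2.86 FPKM in shhnRNP U alone, and the ONECUT1 row covered it in the other libraries.

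**Figure D4:**
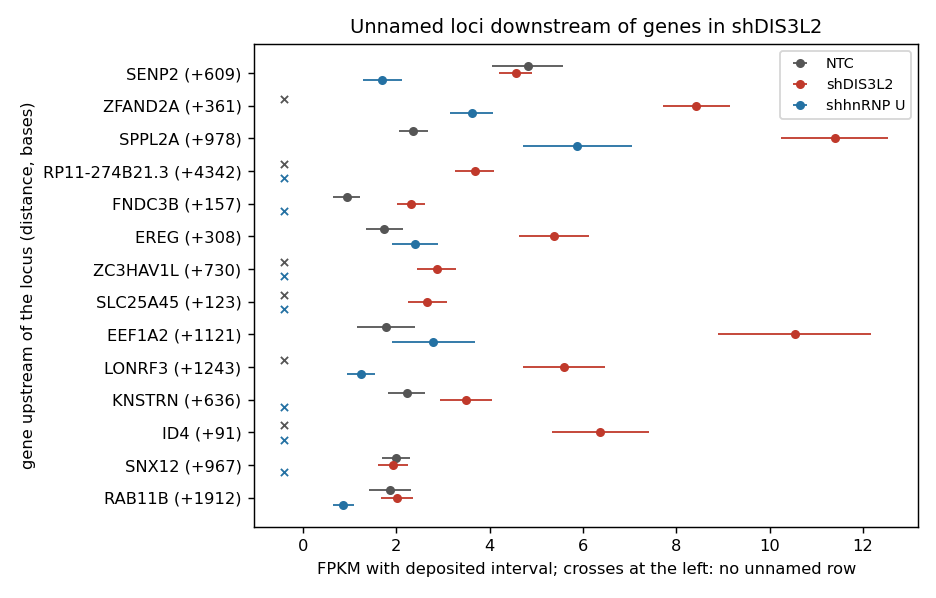
FPKM with its deposited interval (horizontal axis) in NTC, shDIS3L2 and shhnRNP U for the 14 downstream loci with the most fragments in shDIS3L2, each labelled with the gene and the distance in bases past its end. Crosses mark libraries without an unnamed row. The loci were chosen for their fragments in shDIS3L2, which favours high levels there. The shDIS3L2 point lies farthest right beside EREG (5.38), EEF1A2 (10.5) and SPPL2A (11.4), and overlaps NTC beside SENP2, SNX12 and RAB11B.

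Before gene starts, several loci were lowest in shDIS3L2. At chr13:100737501-100741251, which ends 18 bases before PCCA, a subunit gene of propionyl-CoA carboxylase, levels were 79.5 FPKM (67.9 to 91.1) in NTC, 13.5 (11.9 to 15.1) in shDIS3L2 and 47.7 (38.6 to 56.8) in shhnRNP U. The row was 3261 bases long in shDIS3L2 and 335 and 366 in NTC and shhnRNP U, with 298, 188 and 111 fragments, so the low level there goes with a longer row and not with fewer fragments. Before SECTM1, a gene of a secreted membrane protein, chr17:80293125-80297802 stood at 4.04 FPKM (3.66 to 4.43) in NTC, 1.51 (1.21 to 1.81) in shDIS3L2 and 1.69 (1.17 to 2.21) in shhnRNP U, on 439, 100.1 and 42.4 fragments. In shDIS3L2 the SECTM1 row itself reached into this stretch. Before the overlapping rows of RAB40C and WFIKKN1, chr16:637759-639274 stood at 4.94 FPKM (4.16 to 5.73), 1.65 (1.10 to 2.2) and 3.43 (2.70 to 4.16) in that order. CKS2 encodes a subunit of cyclin-dependent kinases, and chr9:91924865-91925786, 327 bases before it, stood at 7.82 FPKM (6.29 to 9.36) in NTC, 2.81 (1.77 to 3.86) in shDIS3L2 and 8.53 (7.0 to 10.1) in shhnRNP U. CKS2 itself stood at 251, 286 and 418 FPKM, so the upstream locus was low in shDIS3L2 while the gene was not.

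Other upstream loci were highest in shhnRNP U. The stretch chr5:1345296-1350916, 82 bases before the membrane protein gene CLPTM1L, stood at 3.87 FPKM (3.51 to 4.24) in shhnRNP U, 3.04 (2.41 to 3.67) in shDIS3L2 and 2.26 (1.88 to 2.65) in NTC, on 451, 93.7 and 140 fragments. Before FOXC1, a forkhead transcription factor gene, chr6:1604285-1610015 stood at 2.73 FPKM (2.43 to 3.03) in shhnRNP U, 1.42 (1.12 to 1.73) in shDIS3L2 and 1.29 (1.06 to 1.52) in NTC. Before TRIM71, a gene of early embryos that is a target of the microRNA let-7, chr3:32855232-32857952 stood at 3.54 FPKM (3.02 to 4.05) in shhnRNP U, 1.51 (0.976 to 2.05) in shDIS3L2 and without a row in NTC. In each of these the interval of shhnRNP U lay above that of NTC where NTC had a row.

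Knockdown of DIS3L2 was next compared with NTC locus by locus, over the 878 loci with an unnamed row in both libraries. A locus was called higher or lower by a size rule: a log2 ratio of at least 1 or at most -1, deposited intervals that do not overlap, and the status OK in both libraries. By this rule 53 loci (6.04%) were higher in shDIS3L2 and 32 (3.64%) lower, and 793 were neither. Over all 12320 named genes and unnamed loci with a mean of 1 FPKM or more, 9.07% were higher and 7.57% lower. The 878 loci had no such filter. Of the 723 loci that met it, 53 were higher and 32 lower, and both shares lay below those of all features. Loci counted only with an unnamed row in both libraries, which left out 1797, whereas a named gene could stand at 0 FPKM. These shares therefore do not compare like sets, and whether loci differed less than genes was not tested. Over the 878 loci the median log2 ratio was 0.16, and that of all features was 0.10. Over the 541 loci at 1 FPKM or more in both libraries, however, it was 0.07, below that of all features. In shhnRNP U, 48 of 823 loci (5.83%) were higher, 29 (3.52%) lower and 746 neither. Of the 650 loci with a mean of 1 FPKM or more, the same 48 and 29 were called. The background was 8.52% higher and 7.49% lower among 12292 features with such a mean. The same limit holds here, with 1852 loci left out for want of a row in both libraries. The medians were 0.06 for the 823 loci, 0.09 over the 494 at 1 FPKM or more in both libraries, and 0.13 for all features. Both comparisons use the same NTC library. With the libraries rescaled by median of ratios, the split in shhnRNP U turned from 48 higher and 29 lower to 39 and 40. In shDIS3L2 it went from 53 and 32 to 46 and 37. The share of all features called was not computed after rescaling.

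Most calls came from loci without like bounds, but most of the loci compared also lacked them. Like bounds means rows of at least 600 bases that overlapped by 80% of both, so shorter rows with matching ends lack them too. Of the 85 called loci in shDIS3L2, 62 lacked like bounds, and of the 77 in shhnRNP U 64 did. Like bounds were found at 268 of all 878 loci in shDIS3L2 and at 246 of all 823 in shhnRNP U. Among the 268 loci with such like bounds in shDIS3L2, 12 were higher and 11 lower, with a median log2 ratio of 0.14. Among the 246 in shhnRNP U, 8 were higher and 5 lower, with a median of 0.06. A share over all features with like bounds was not computed. The 5 highest ratios in shDIS3L2 among loci chosen in all libraries include some between rows of very unlike length. They belong to the ZNF675 locus above (8.51) and to 4 more, among them chr18:27736295-27755986 (4.41), where a row of 274 bases in shDIS3L2 met one of 19692 in NTC. A further one, inside C22orf23 at chr22:38344584-38345055, had rows of similar length, 472 and 427 bases. It stood at 16.6 FPKM (12.8 to 20.4) in shDIS3L2, 2.54 (1.07 to 4.01) in NTC and 7.61 (4.78 to 10.4) in shhnRNP U.

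The lowest ratios given here also set rows of unlike length against each other. At chr2:224588395-224588767 the levels were 346 FPKM in NTC, 11.7 in shDIS3L2 and 2109 in shhnRNP U, in rows of 191, 373 and 188 bases on 21, 31.0 and 47.5 fragments. The log2 ratios of -4.77 in shDIS3L2 and 2.60 in shhnRNP U thus came with more fragments in both knockdowns than in NTC. In shhnRNP U the highest ratio, 6.13 at chr11:105328964-105387207, set a row of 206 bases on 17.0 fragments against an NTC row of 57745 bases on 34.7 fragments. The lowest, -3.68 at chr11:67084052-67098586, 3974 bases past SSH3, set 31.0 FPKM in an NTC row of 239 bases against 1.49 FPKM in a row of 4612 bases. Upstream of CP, the ceruloplasmin gene of copper transport, chr3:148942356-148944316 stood at 24.1 FPKM (19.6 to 28.7) in NTC, 9.79 (6.37 to 13.2) in shDIS3L2 and 3.67 (2.56 to 4.77) in shhnRNP U. Its fragments numbered 112 in NTC, 32.7 in shDIS3L2 and 44.3 in shhnRNP U, in rows of 1351, 483 and 815 bases.

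**Figure D5:**
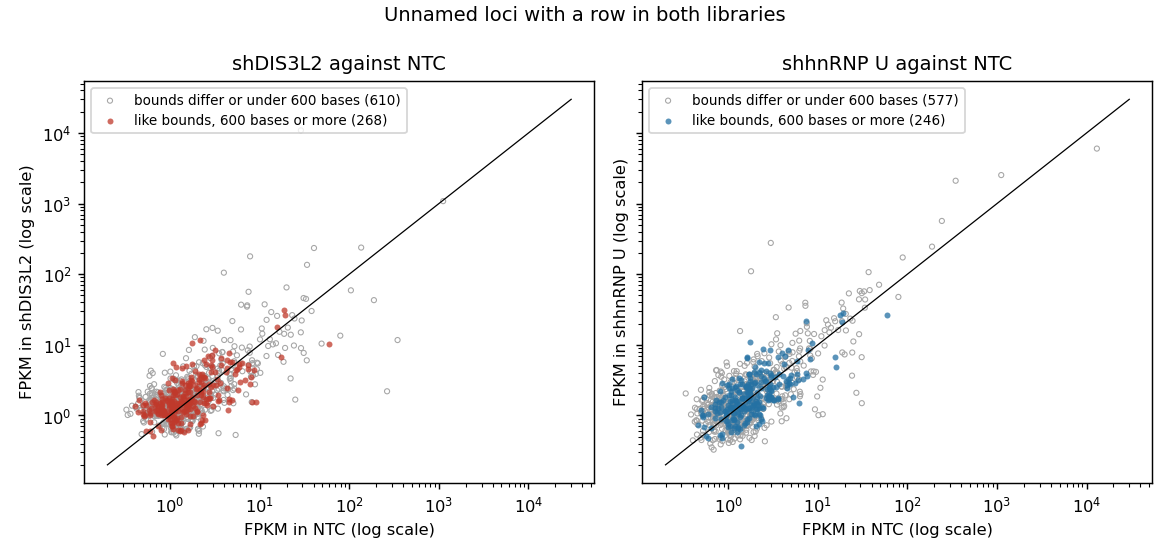
FPKM in NTC against FPKM in shDIS3L2 (left) and shhnRNP U (right), both axes logarithmic, for merged loci with an unnamed row in both libraries. Filled points are loci with like bounds of at least 600 bases (268 and 246), open circles the other 610 and 577, and the line marks equal levels; the points farthest from the line are open circles.

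Among loci with like bounds, the largest lower ratio in shDIS3L2 was that of chr2:13656191-13673508 (-2.42), described above. Like bounds compare the span of rows and not their exons, and the rows of this locus fit unlike transcript lengths. Next came chr17:41300154-41301126, inside NBR2, the noncoding neighbour of BRCA1, at 9.0 FPKM (7.16 to 10.8) in NTC, 1.55 (0.632 to 2.47) in shDIS3L2 and 4.21 (2.77 to 5.65) in shhnRNP U. The fragments there were 96.0, 11.4 and 34.2 in that order. At chr11:67387465-67388758 levels were 8.26, 1.53 and 8.74 FPKM on 149, 8.26 and 196 fragments, so only shDIS3L2 was low. The intergenic locus chr20:37089729-37091506, 9953 bases before RALGAPB, stood at 17.5 FPKM (16 to 19.0) in NTC, 6.74 (5.79 to 7.68) in shDIS3L2 and 26.2 (24.4 to 28.1) in shhnRNP U, on 571, 204 and 814 fragments. Its 3 intervals do not overlap, and shDIS3L2 was below and shhnRNP U above NTC.

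On the higher side with like bounds, the EEF1A2 locus led in shDIS3L2 with a log2 ratio of 2.05, and the EREG locus had 1.22. Inside CTNNB1, the beta-catenin gene, chr3:41288371-41291874 stood at 5.47 FPKM (4.80 to 6.14) in shDIS3L2 and 1.09 (0.845 to 1.33) in NTC, with no unnamed row in shhnRNP U. CTNNB1 itself stood at 110 FPKM in shDIS3L2, 62.2 in NTC and 131 in shhnRNP U. In the stretch shared by MSANTD3 and TMEFF1, chr9:103215353-103218651 stood at 4.98 FPKM (4.39 to 5.57) in shDIS3L2 and 1.51 (1.23 to 1.79) in NTC, where the named row stood at 137 and 39.5 FPKM, so gene and inner locus were higher together.

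In shhnRNP U the largest higher ratios with like bounds belonged to the loci that follow. At chr5:19287665-19288336, 53069 bases from the pseudogene HSPD1P15, the level was 10.9 FPKM (8.69 to 13.1) in shhnRNP U, 1.76 (0.953 to 2.57) in NTC and 3.11 (1.86 to 4.35) in shDIS3L2. A second locus on that arm, chr5:19172879-19181346, stood at 6.46 FPKM (4.68 to 8.24) in shhnRNP U, 1.61 (0.805 to 2.41) in NTC and 3.26 (1.98 to 4.54) in shDIS3L2. Both stood highest in shhnRNP U and lowest in NTC. At chr1:148176085-148176998, 16174 bases before the noncoding gene RP11-289I10.2, the level was 21.9 FPKM (19.4 to 24.4) in shhnRNP U, 7.32 (5.98 to 8.66) in NTC and 5.24 (3.96 to 6.52) in shDIS3L2. At chr17:41400317-41401200 it was 6.71 FPKM (5.17 to 8.24), 1.62 (0.811 to 2.43) and 1.57 (0.868 to 2.27) in that order. On the lower side, chr3:195872607-195875467, inside LINC00885, stood at 6.71 FPKM (5.67 to 7.76) in shhnRNP U, 15.4 (14.1 to 16.7) in NTC and 18.1 (16.5 to 19.7) in shDIS3L2. The intergenic chr7:100100499-100101123 stood at 4.86 FPKM (3.30 to 6.41) in shhnRNP U, 16.1 (13.4 to 18.7) in NTC and 7.19 (5.07 to 9.32) in shDIS3L2, so it was below NTC in both knockdowns.

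Loci chosen in 1 library alone were led by rows under 300 bases, as above. Among those of 600 bases or more, NTC alone had chr9:33816747-33817713 inside UBE2R2, a ubiquitin-conjugating enzyme gene, at 19.6 FPKM on 305 fragments. It also had chr17:18086113-18087701 inside ALKBH5, a gene of an RNA demethylase, at 19.1 FPKM on 501 fragments, and chr6:42997196-43001014 inside RRP36, a gene of ribosomal RNA processing, at 12.2 FPKM on 738 fragments. In shDIS3L2 alone, chr7:128594159-128595096 inside TNPO3, which encodes a nuclear import receptor of splicing factors, stood at 29.5 FPKM on 287 fragments. The locus chr4:37612255-37614633 inside RELL1 stood at 22.1 FPKM on 666 fragments, and chr7:44869617-44873974 inside the histone variant gene H2AFV at 7.56 FPKM on 486 fragments. In shhnRNP U alone, chr18:19280019-19281374 inside ABHD3 stood at 6.94 FPKM on 154 fragments, and chr7:44834699-44836036, 243 bases before the cyclophilin A gene PPIA, at 6.11 FPKM on 146 fragments. Near HIC1, a transcriptional repressor gene, chr17:1954675-1955678 stood at 5.04 FPKM (3.92 to 6.15) in shhnRNP U and 0.973 (0.427 to 1.52) in NTC, with HIC1 itself at 11.9, 1.86 and 3.24 FPKM in shhnRNP U, NTC and shDIS3L2. Many of these lie wholly inside an expressed gene, so an assembly that keeps the stretch apart in 1 library and not in the others cannot be told apart from a change in RNA.

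Loci did not closely follow their neighbours. In shDIS3L2, 481 of 873 loci (55.1%) had a log2 ratio of the same sign as the nearest expressed gene, and in shhnRNP U 453 of 818 (55.4%). Across those loci Pearson's r was 0.04 in shDIS3L2 and 0.14 in shhnRNP U, and Spearman's rho 0.07 and 0.17. Each locus shares its libraries and depth with its neighbour, so these are descriptions. Of 60 loci beside a gene called higher in shDIS3L2, 36 had a higher level themselves, and of 55 beside a gene called lower 27 had a lower one. Over all 873 loci, 58.3% were higher and 41.7% lower. In shhnRNP U the counts were 43 of 68 and 18 of 32, against 53.7% higher and 46.3% lower over all 818 loci. Of the targeted genes, DIS3L2 had 1 unnamed row overlapping it, in shDIS3L2 alone, and HNRNPU had 0 in any library.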

How the data were processed

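RNA-seq of PLC cells gave 1 library per group (NTC, shDIS3L2 and shhnRNP U). The authors deposited an FPKM for each gene together with its bounds and a status flag, per the file headers. Per the submitters' processing notes the tools were TopHat2 2.0.12 and Cufflinks 2.2.1 and the build was hg19. The library kit was NEBNext Ultra, per the labels' protocols. Per the identifiers in the deposited tables, each library was assembled separately. The sources used here give neither the level of the bounds nor the annotation. Locus starts were taken as counted from 0 and are printed from 1.

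Rows with a dash for a name and at least 1 FPKM were taken and merged by any overlap. The highest row of a library stands for a locus. Fragments were worked out from the deposited bounds, with the distance from FPKM to upper bound taken as 2 Poisson SD. Fragments times 1000 over FPKM were fitted by Theil-Sen against length in unnamed rows of 600 to 3000 bases. These had at least 5 fragments and a near-whole estimate (758, 714 and 654 rows), and a second round left out rows far from the first line. The slope gave the depth, and 240, 241 and 263 bases had to be subtracted from the length. A row counted as unspliced when its length so found was within 5% of the expected one. Up to 20 fragments, 46.3%, 45.0% and 45.5% of estimates came out whole within 0.02, so no count test was run. The size rule needed a log2 ratio of FPKM plus 1 of at least 1 in size, intervals apart and status OK. Gene strand came from GENCODE release 29, matched by gene ID or symbol. That annotation is on another build, and its coordinates were not used. Python 3.11.15, numpy 2.4.6, pandas 2.3.3, scipy 1.17.1 and matplotlib 3.10.9 were used, and the scripts were tested on simulated data.

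The loci named were the 10 highest in any library, the 5 highest and 5 lowest ratios in each knockdown among loci in all libraries, the 4 highest in 1 library only, the 3 longest, and the rows nearest the threshold. Some of these are given only in counts. The members and lists were chosen with earlier results of these data known. Fragments, like bounds, the side of the gene, levels over loci at 1 FPKM or more in both libraries and the further loci named under them (the most fragments on each side, like bounds past the rule, the highest of at least 600 bases in 1 library) were added after values had been seen.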

Additional observations from a re-analysis of the deposited data

How the results depend on the processing

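Of 112 other settings of the counts and shares above, 66 left the value within its bounds (1.5 times for counts, the exact binomial 95% interval for shares) and 46 moved it. The number of loci was 4293, 1204 and 413 at floors of 0.5, 2 and 5 FPKM, and loci in all 3 libraries were 597, 131 and 42, or 569 when a row of any FPKM counted. Loci in 1 library were 838 and 281 at floors of 2 and 5 FPKM. Overlap with a named row, 48.8% over all rows, was 47.2%, 53.2% and 51.5% at floors of 0.5, 2 and 5 FPKM and 38.6% against named rows at 1 FPKM or more.

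Counts past the size rule moved with several settings. The share of all features called was computed at the main setting only, so these counts describe the loci alone. In shDIS3L2, higher and lower loci were 109 and 56 with a pseudocount of 0.1, 21 and 15 with one of 5, 14 and 10 at a log2 ratio of at least 2, 27 and 17 without loci overlapping a named row, and 12 and 11 with like bounds, and 33 were higher with a reciprocal overlap of 50%. In shhnRNP U they were 88 and 59, 14 and 13, 9 and 7, 25 and 17, and 8 and 5 in the same order, and 16 were lower with a reciprocal overlap of 50%. Same-sign neighbours in shhnRNP U were 50.7% with named rows of at least 5 FPKM.

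The downstream share in NTC was 59.0%, 44.1% and 43.5% at floors of 0.5, 2 and 5 FPKM, 55.9% for rows of at least 600 bases and 42.4% within 1000 bases. In shhnRNP U it was 56.2% and 40.6% at floors of 0.5 and 5 FPKM and 40.4% within 1000 bases. In shDIS3L2 it was 75.3% with a floor of 2 FPKM and at least 600 bases together, and from 66.8% to 72.1% in the other settings run. In each of the settings run the share was highest in shDIS3L2. Of downstream loci with a row in both libraries, the share higher in shDIS3L2 went from 67.1% to 58.4% over those at 1 FPKM or more in both.

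No paired analysis was possible because each group has 1 library, so no library was left out either. Depth limits what can be seen: 10 fragments at 1000 bases are worth 0.522, 0.657 and 0.610 FPKM in NTC, shDIS3L2 and shhnRNP U, so at this length the floor of 1 FPKM lies above 10 fragments in each library, whereas at 600 bases it lies below.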
